A study of Mus musculus with 6 samples.

Results

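Nppa and Apold1 are 2 of the 18560 genes counted in single cells of the mouse olfactory bulb. Both genes were chosen by measured values of these data, namely their lower levels in interneurons after naris occlusion, so that contrast is given here as a description with no test. Cells came from C57BL/6NJ mice of 14 weeks in 3 conditions, with 2 libraries per condition and 3 mice pooled in each library. Per the labels and the methods of the study, control mice had no manipulation and naris-occluded mice had 1 nostril plugged for 6 weeks. Trained mice were water-deprived and learned over 6 weeks to tell a rewarded odor from an unrewarded one. Replicate 1 held males and replicate 2 females in every condition, and no allele or transgene was used in these groups. The text of the study also calls such mice naive, but in another place it names the open side of occluded mice as the control, and the files do not settle which bulbs were taken.

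Nppa encodes atrial natriuretic peptide, a hormone best known from the atria of the heart, which acts on a receptor guanylyl cyclase, Npr1, and thereby raises cyclic GMP in the receiving cell. Apold1 encodes a membrane protein with an apolipoprotein L domain, known as an immediate early gene of endothelial cells that is induced by hypoxia and other stimuli. The cells of interest are inhibitory interneurons of the bulb, many of which are born in adult life, migrate into the bulb and become granule cells or periglomerular cells. Closure of a nostril deprives the bulb on that side of input from olfactory sensory neurons.

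Both genes lie on the forward strand, and the 250 bases before each start are shown because the genes were chosen as a pair with the same direction of difference. Sequence and positions are from RefSeq on GRCm38.p6. Capitals mark the letters TATAAA and, in Apold1 alone, CGTCA, the reverse complement of TGACG, a partial cyclic AMP response element.
Nppa: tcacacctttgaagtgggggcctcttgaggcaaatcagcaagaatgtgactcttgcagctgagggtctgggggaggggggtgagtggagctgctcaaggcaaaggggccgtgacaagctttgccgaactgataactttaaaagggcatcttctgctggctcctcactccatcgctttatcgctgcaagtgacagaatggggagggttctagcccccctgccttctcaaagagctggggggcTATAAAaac
Apold1: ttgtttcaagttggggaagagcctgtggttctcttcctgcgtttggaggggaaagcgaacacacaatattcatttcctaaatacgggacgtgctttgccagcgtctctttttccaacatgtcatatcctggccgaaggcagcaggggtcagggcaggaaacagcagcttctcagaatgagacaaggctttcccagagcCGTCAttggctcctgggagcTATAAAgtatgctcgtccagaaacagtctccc

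The window of Nppa (gene at chr4:148000722-148002074) was chr4:148000472-148000721, with 54.4% G and C and 4 CpG. That of Apold1 (gene at chr6:134982001-134986836) was chr6:134981751-134982000, with 50.8% G and C and 8 CpG. The median over all 32851 windows was 52.4%. TATAAA, searched on both strands, began 9 bases before the start of Nppa and 32 bases before that of Apold1, and 12.4% of all windows held it. TGACG was 52 to 48 bases before the start of Apold1, and 17.8% of windows held it on either strand. The full element TGACGTCA (1.55% of windows), the AP-1 letters TGAGTCA (4.46%), the GATA letters AGATAA (9.99%) and the CArG box (1.47%) had no match in either window. Only these exact letters were searched, and the Nppa window also holds tgataa, a variant of AGATAA that was not searched for. Every match of TGACGTCA also counts as one of TGACG.

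Of 52549 barcodes, 51426 had a cluster in the annotation by the authors, and 21746 of these fell into 18 neuronal clusters. The libraries held 6705 to 10570 barcodes with a cluster, with 11841160 to 17065083 UMIs in these, and the median per barcode was 1028 to 1723.5 UMIs. The median share of mitochondrial UMIs was 9.25 to 14.4%. Libraries could share a barcode sequence (1461 of 49931 sequences occurred in more than 1), with at most 144 shared by any pair. Levels are given in CPM, the summed UMIs of a gene scaled by all UMIs of the same cells of a cluster in a library, with mean ± SD over 6 libraries. Libraries are listed throughout as control 1 and 2, naris-occluded 1 and 2, and trained 1 and 2. Counting error, and not expression alone, sets the spread where few UMIs were counted.

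Nppa was concentrated in one neuronal cluster, n02-PGC-1. Its level there was 1094, 1118, 672, 523, 864 and 1142 CPM, a mean of 902 ± 261 CPM from 1869 UMIs in 1037 cells. The neighbouring cluster n03-GC-1, with 1914 cells, had 249.9, 363, 121, 158, 249 and 198 CPM (223 ± 85.2 CPM). Every library was lower in n03-GC-1 than in n02-PGC-1, and the ranges did not overlap. The geometric mean of the ratio was 4.13, with 3.08 to 5.75 over the libraries. Cluster n05-PGC-2 followed with 134, 203, 109.9, 132, 90.1 and 186 CPM (142 ± 43.6 CPM). Its range overlapped that of n03-GC-1, although n03-GC-1 was higher in 6 of 6 libraries, by 1.53 times on the geometric mean. Cluster n17-M/TC-3, of mitral or tufted cell type in the annotation, had 33.3 ± 19.9 CPM, and its range did not overlap that of n05-PGC-2. The other 14 neuronal clusters were at 24.9 CPM or less, and nonneuronal cells outside the vessels were at 3.85 ± 1.47 CPM. These clusters were made from expression that included both genes, so the differences between clusters are descriptions.

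Apold1 was highest in the same pair of clusters and nearly lacking in the third. In n02-PGC-1 it reached 754, 671, 404, 332, 764 and 759.9 CPM (614 ± 195 CPM, 1277 UMIs). In n03-GC-1 it was 339, 285, 235, 136, 288 and 318 CPM (267 ± 73.3 CPM, 698 UMIs). All 6 libraries were higher in n02-PGC-1, by 2.28 times on the geometric mean (1.72 to 2.65), yet the ranges overlapped, since n02-PGC-1 of naris-occluded 2 lay just under n03-GC-1 of control 1. The next neuronal cluster, n16-M/TC-2, had a mean of 17.9 CPM, all of it from control 2, and its range did not reach that of n03-GC-1. In n05-PGC-2, where Nppa had 136 UMIs, the files held 1 Apold1 UMI in 377 cells, in trained 1.

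**Figure D1:**
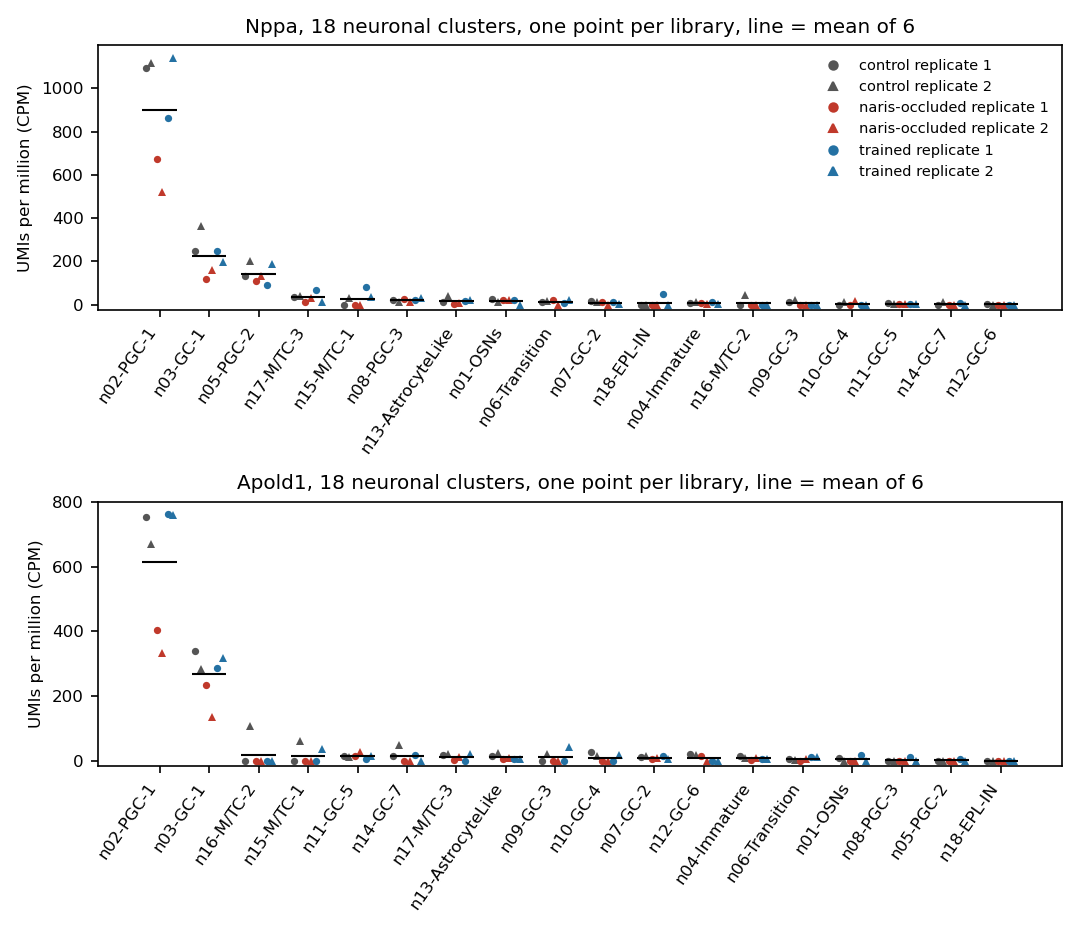
Levels of Nppa and Apold1 in the 18 neuronal clusters, in CPM on a linear axis, with 1 point per library and a line at the mean over 6 libraries. Both genes peak in n02-PGC-1 and n03-GC-1, and n05-PGC-2 holds Nppa (142 CPM) with 1 Apold1 UMI.

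The labels of these clusters were checked against their markers. All 3 inhibitory neuron markers (Gad1, Gad2 and Slc32a1) were present in n02-PGC-1, with a summed level of 899 to 1142 CPM, against 752 to 1023 CPM in n03-GC-1 and 2634 to 3465 CPM in n05-PGC-2. The periglomerular markers Calb2, Th and Calb1 summed to 5310 to 7200 CPM in n02-PGC-1, to 9053 to 16183 CPM in n03-GC-1 and to 1211 to 1644 CPM in n05-PGC-2. Nearly all of the sum in n02-PGC-1 and n03-GC-1 was Calb2 (means of 6489 and 13129 CPM) and most of it in n05-PGC-2 was Th (1277 CPM), so these markers did not separate cells labelled periglomerular from those labelled granule. Of n02-PGC-1 cells, 98.9% lay in the cluster N13 of the whole-bulb annotation, as did 98.6% of n03-GC-1 cells, so the coarser annotation did not separate them. Accordingly N13 was the highest of the 38 whole-bulb clusters for both genes, at 535 ± 212 CPM for Nppa and 426 ± 153 CPM for Apold1.

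Outside neurons, Apold1 marked the vessels and Nppa did not. Endothelial cells, which line blood vessels, were summed over EC1 and EC2 (3648 cells). They held Apold1 at 77.0, 65.5, 71.5, 44.3, 83.2 and 68.3 CPM (68.3 ± 13.3 CPM, 403 UMIs). The level in n02-PGC-1 was 8.71 times higher on the geometric mean (5.66 to 11.1 over libraries), and that in n03-GC-1 3.82 times higher (3.06 to 4.66). EC1 was at 75.8 ± 15.1 CPM and EC2 at 39.1 ± 12.1 CPM, with EC1 higher in 6 of 6 libraries. Nppa in endothelial cells was 20 UMIs in all, 3.40 CPM, close to the 3.88 CPM of nonvascular nonneuronal cells.

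Among mural cells, which wrap vessels, Mural1 had the highest Apold1 level outside neurons, at 161, 157, 64.7, 135, 259 and 63.6 CPM (140 ± 72.7 CPM) from 158 cells. Mural1 carried both vascular marker sets, with a summed 12704 CPM of 12 endothelial markers and 10614 CPM of 6 mural markers. Its median depth was 3508 UMIs, against 1349 in Mural2 and 1621 in EC1. Whether its barcodes held endothelial and mural cells together was not tested. Mural2 had Apold1 at 72.2 ± 17.3 CPM, with 19590 CPM of mural and 1013 CPM of endothelial markers. The ranges of Mural1, EC1 and Mural2 overlapped one another. Nonneuronal cells without endothelial and mural cells were at 3.83 ± 1.31 CPM. Of 7 apolipoprotein L genes that were measured beside Apold1, the highest mean in any whole-bulb cluster was 24.4 CPM, of Apol11b in RBCs, and Apol10b was highest in EC1 at 10.9 CPM.

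**Figure D2:**
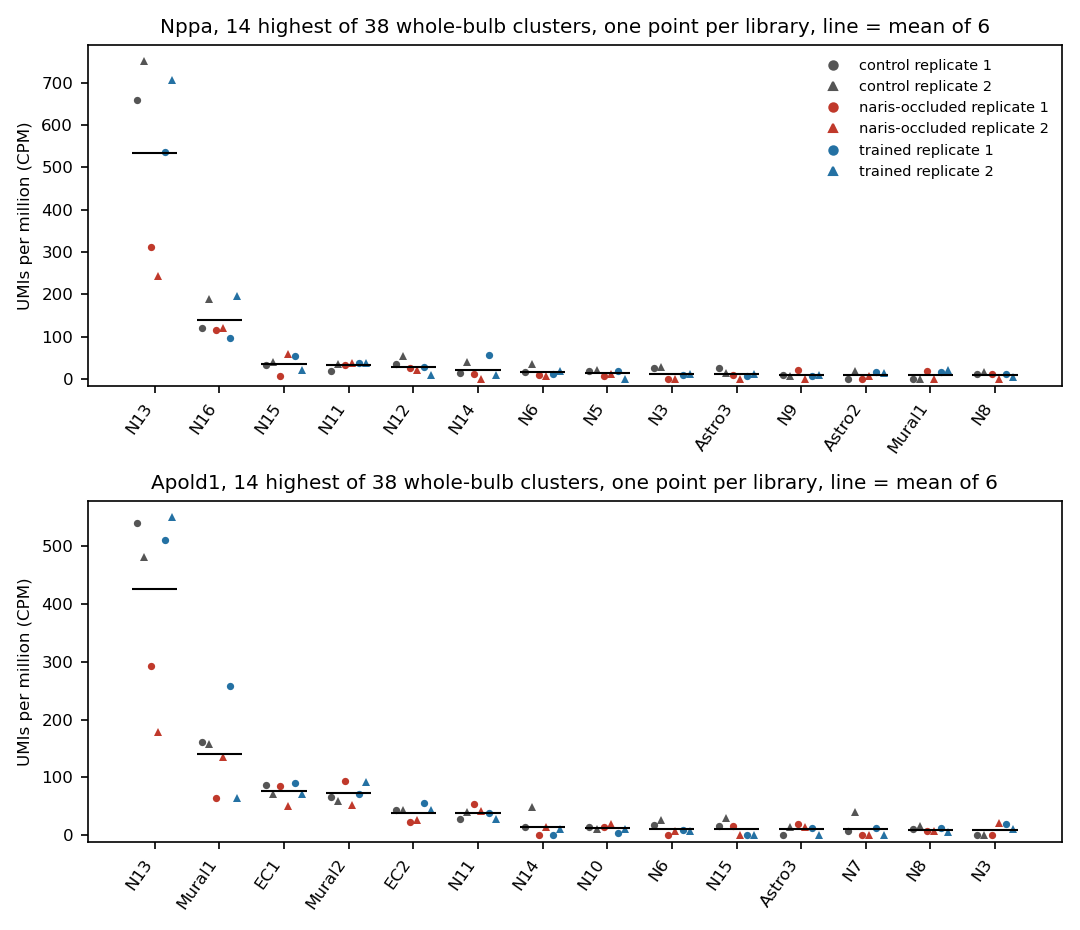
Levels of Nppa (top) and Apold1 (bottom) in the 14 highest of 38 whole-bulb clusters for each gene, in CPM on a linear axis, with 1 point per library and a line at the mean over 6 libraries. N13 is highest for both genes, and Mural1, EC1, Mural2 and EC2 follow for Apold1 (140, 75.8, 72.2 and 39.1 CPM) but not for Nppa.

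The molecules of each gene were also counted by where they lay. Of 3239 Nppa UMIs, 57.7% were in n02-PGC-1, 17.9% in n03-GC-1 and 4.20% in n05-PGC-2. Other neurons held 10.1% and nonvascular nonneuronal cells 5.71%, among 19173 and 24350 cells. They were not spread evenly. The whole-bulb neuron cluster N11 held 84 Nppa UMIs (33.9 CPM) and 93 Apold1 UMIs (38.5 CPM) in 951 cells. Of these cells, 1 was of n02-PGC-1 and 4 of n03-GC-1. Of 3153 Apold1 UMIs, 40.5% were in n02-PGC-1, 22.1% in n03-GC-1, 12.8% in endothelial and 5.46% in mural cells. By library, in the order control 1 and 2, naris-occluded 1 and 2, trained 1 and 2, n02-PGC-1 held 65.7, 60.3, 58.2, 37.3, 55.1 and 71.0% of the Nppa UMIs and 46.6, 45.8, 31.8, 23.7, 43.5 and 50% of the Apold1 UMIs. In naris-occluded 2 both clusters held 118 Nppa UMIs each, and in the occluded libraries n03-GC-1 held more Apold1 UMIs (146 and 101) than n02-PGC-1 (133 and 75). These values by library mix cell numbers with the levels the genes were chosen by.

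The share of cells in which a gene was seen also depends on depth. Cells differ in depth (the median was 1846 UMIs in n02-PGC-1, 1416 in n03-GC-1, 1931 in n05-PGC-2, 1621 in EC1 and 1710 in nonvascular nonneuronal cells), so shares were also computed with every cell thinned to 500 UMIs, a depth that all cells of these clusters reached. Nppa was seen in 67.7% of n02-PGC-1 cells (34.8% after thinning), 20.3% of n03-GC-1 (9.96%) and 18.8% of n05-PGC-2 (5.55%). In n05-PGC-2 the cells with Nppa had a median depth of 3531 UMIs and those without it 1350. In nonvascular nonneuronal cells, which should lack it, the share was 0.686% (0.231%). Apold1 was seen in 56.9% of n02-PGC-1 cells (24.8% after thinning), 23.5% of n03-GC-1 (10.2%), 9.83% of EC1 (3.10%) and 31.6% of Mural1 (6.89%), so Mural1 was over n03-GC-1 as observed and under it after thinning. In nonvascular nonneuronal cells it was 0.727% (0.237%). The highest counts in a single cell were 15 UMIs for Nppa and 11 for Apold1 in n02-PGC-1, and 12 for Apold1 in EC1.

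Both transcripts often occurred in the same n02-PGC-1 cell. Of 1037 cells, 409 (39.4%) held both. By library the share with both was 44.9, 47.0, 26.4, 19.9, 44.0 and 49.2%, lowest in the 2 naris-occluded libraries. The share with neither was 9.38, 11, 23.3, 28.7, 12 and 9.52%, highest in the same libraries. Such shares by library, here and in n03-GC-1, restate the contrast the genes were chosen by and are not corrected for depth. Apold1 was seen in 58.3% of n02-PGC-1 cells with Nppa and in 54.0% of those without it, and in n03-GC-1 in 23.1 and 23.5%. Pooled over libraries, cells with and without Nppa thus had similar shares of Apold1 within a cluster. By library the gap went either way, in n03-GC-1 with 24.1 and 34.0% in control 1 and 38.1 and 25.6% in control 2. In n03-GC-1, cells with both were 5.52, 12.2, 3.04, 2.04, 4.55 and 7.91% of the libraries.

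**Figure D3:**
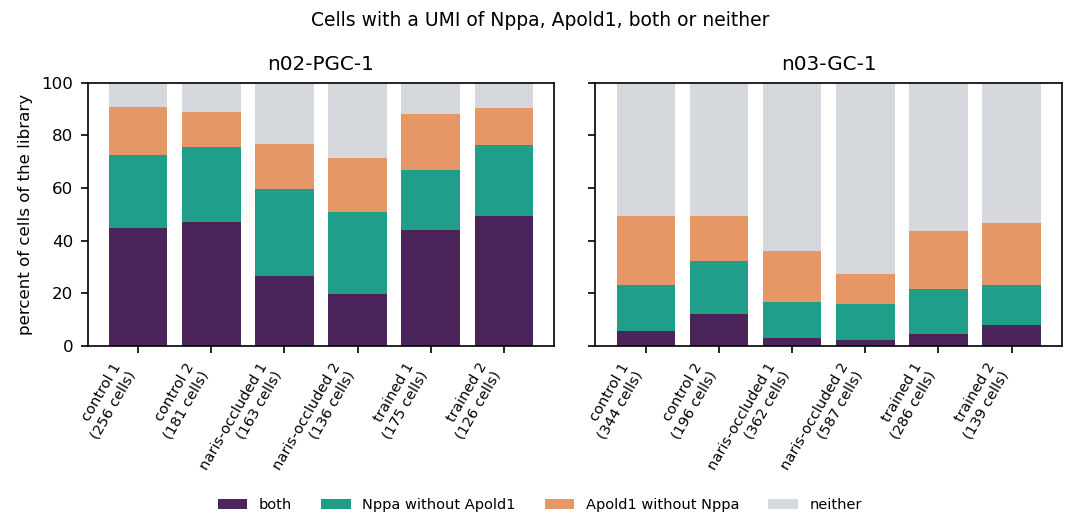
Share of n02-PGC-1 and n03-GC-1 cells with both transcripts, one, or neither, as a percent of the cells of each library. In n02-PGC-1 the share with both is 26.4 and 19.9% in the naris-occluded libraries and 44.0 to 49.2% in the other 4. This restates the contrast the genes were chosen by and is not corrected for depth.

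The genes whose cluster profile was most like that of Nppa were ranked by Pearson r of log2(mean CPM + 1), among genes that reached 50 CPM in some cluster. Clusters share libraries and have unequal depth, and r is a description. Over 18 neuronal clusters the first 5 of 7021 genes were Sipa1l2 (0.90), Chml (0.86), Pde5a (0.85), Enho (0.83) and Aebp1 (0.83), while Apold1 had 0.54. Pde5a encodes a phosphodiesterase that breaks down cyclic GMP. For Apold1 they were Fam124a (0.88), Zic5 (0.87), Dbpht2 (0.86), Cyth1 (0.85) and Zic1 (0.84), of which Zic5 and Zic1 encode zinc finger transcription factors. Over 38 whole-bulb clusters Nppa was most like AI593442 (0.81), Gpr22 (0.80), Nrsn1 (0.78), Syndig1l (0.76) and E530001K10Rik (0.76). Apold1 was most like Rgs5 (0.73), Esam (0.72), Pde2a (0.70), Car4 (0.70) and Tek (0.68), of which Rgs5 is a mural and Esam and Tek are endothelial markers. Nppa and Apold1 had r of 0.39 with each other over these 38 clusters.

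The receptors of natriuretic peptides had their highest levels in other clusters than Nppa. Of the other ligands, Nppb (brain natriuretic peptide) had 1.40 CPM and Nppc (C-type natriuretic peptide) 4.92 CPM in n02-PGC-1, with 25.0 CPM of Nppc in n03-GC-1. The receptor Npr1 had 1.19 CPM in n02-PGC-1 and 0.492 CPM in n03-GC-1, from 3 and 2 UMIs. Its highest neuronal levels were in n17-M/TC-3 (181 ± 50.7 CPM) and n15-M/TC-1 (138 CPM), and endothelial EC1 had 33.0 CPM. Npr2, the receptor for the C-type peptide, reached at most 41.9 CPM in a neuronal cluster, n15-M/TC-1, with 8.34 CPM in n02-PGC-1. Npr3, which clears natriuretic peptides from the surface, was highest in Mes2 (100.5 ± 69.4 CPM) and had 1 UMI in n02-PGC-1. The clusters highest in Nppa and in Npr1 were therefore different ones.

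Enzymes that process the peptide precursor or handle cyclic GMP were present in n02-PGC-1 at varied levels. Of the processing enzymes, Furin had 19.0 CPM and Pcsk6 14.6 CPM there. Corin was not among the genes counted, so its level is not known. Of the peptide-degrading enzymes, Ide had 19.8 CPM and Mme 1.93 CPM in n02-PGC-1. Among phosphodiesterases, Pde5a was highest in n02-PGC-1 of all neuronal clusters (143 ± 29.8 CPM), with 101 CPM in n03-GC-1. Pde1c was at 257 ± 55.9 CPM in n02-PGC-1 and 242 CPM in n05-PGC-2. Pde2a reached 192 ± 21.2 CPM in n02-PGC-1 and 172 CPM in EC1, with 57.7 CPM in the neighbour n03-GC-1. Nos1, which makes nitric oxide, was highest in n02-PGC-1 among neuronal clusters, at 134 ± 42.0 CPM, with 109.6 CPM in n03-GC-1, and Gucy1a3 and Gucy1b3, subunits of the soluble guanylyl cyclase that nitric oxide activates, were at 124 and 172 CPM. Of the kinases that cyclic GMP activates, Prkg1 had 2 UMIs and Prkg2 none in n02-PGC-1, and a count of 0 allows up to 3. Prkg2 was at 142 CPM in n05-PGC-2.

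**Figure D4:**
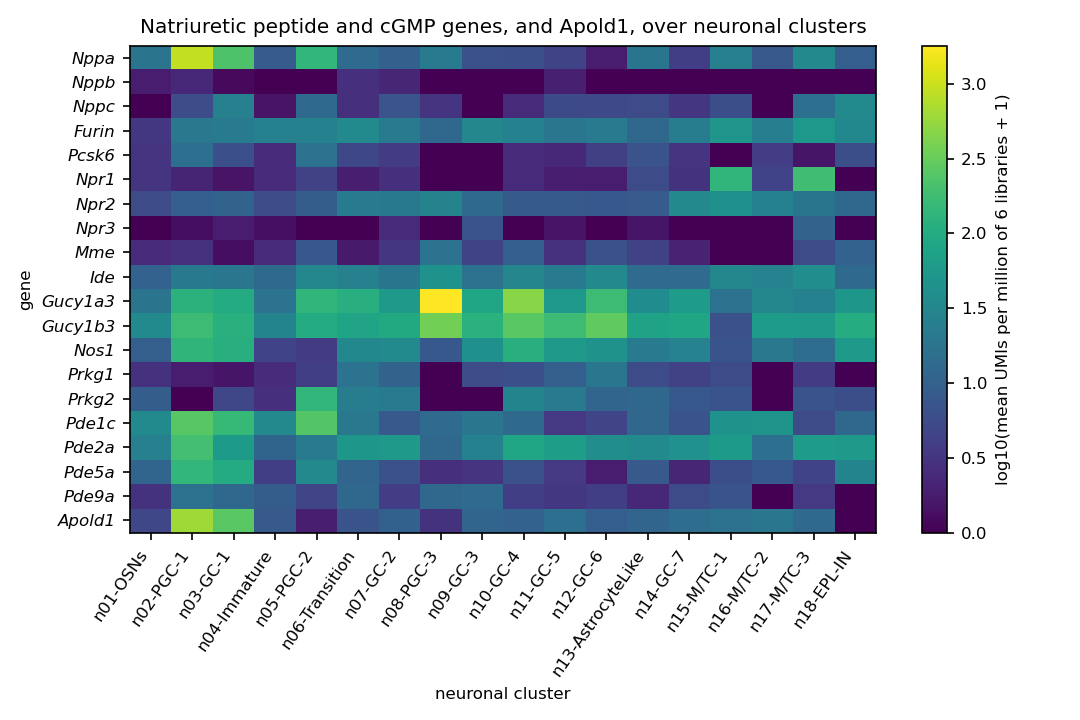
Mean level of natriuretic peptide and cyclic GMP genes and of Apold1 (rows) in the 18 neuronal clusters (columns), as color on the log10(CPM + 1) scale. Nppa is highest in n02-PGC-1, where Npr1 is at 1.19 CPM, and Npr1 is highest among neurons in n17-M/TC-3 (181 CPM).

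With naris occlusion, the contrast the genes were selected on, both levels in n02-PGC-1 were lower in each occluded library than in each control. In the male pools Nppa was 1094 CPM in the control and 672 CPM in the occluded library, and in the female pools 1118 and 523 CPM. The log2 fold change of Nppa was -0.90, a fold of 0.537. Apold1 went from 754 to 404 CPM in males and from 671 to 332 CPM in females. Its log2 fold change was -0.96, a fold of 0.513. The values of the 2 control libraries lay closer to each other than to those of the occluded libraries for both genes. The choice of the genes favors both this separation and the size of the differences. Over all 5829 genes tested in this cluster, 0.0858% passed an adjusted p of 0.05 in this contrast, which is given as background only. The test was edgeR's quasi-likelihood test with Benjamini-Hochberg adjustment. Nppa and Apold1 were among the genes tested, here, in n03-GC-1 and over both clusters, so these background shares are not free of the chosen genes.

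The cluster n03-GC-1 had a difference in the same direction, which is also part of what the genes were chosen by. Nppa was 249.9 and 363 CPM in the controls and 121 and 158 CPM in the occluded libraries (log2 fold change -1.12, fold 0.461). Apold1 was 339 and 285 CPM in the controls and 235 and 136 CPM in the occluded libraries (-0.81, fold 0.569). The conditions did not overlap for either gene. In this contrast 0.0715% of 6995 genes passed the threshold.

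Counts per positive cell restate the contrast the genes were chosen by and are not corrected for depth, which in n02-PGC-1 had a median of 1559 UMIs in naris-occluded 2 and of 1776 to 1962 UMIs in the other libraries. The mean number of Nppa UMIs in n02-PGC-1 cells with at least 1 was 2.89, 2.92, 2.28, 1.71, 2.51 and 3.11. For Apold1 it was 2.30, 2.2, 1.87, 1.36, 2.28 and 2.49, with the 2 occluded libraries lowest for both genes. Cells with 5 or more Nppa UMIs numbered 38, 24, 14, 3, 17 and 19, and with 5 or more Apold1 UMIs 15, 9, 2, 1, 10 and 10. After thinning to 500 UMIs, the share of n02-PGC-1 cells with Nppa was 38.9, 41.1, 26.0, 24.2, 33.7 and 41.4%. That with Apold1 was 28.3, 26.5, 16.5, 15.8, 29.9 and 28.4%. In n03-GC-1 the thinned shares were 11.2, 15.6, 7.33, 7.95, 11.6 and 11% for Nppa and 14.1, 11.2, 8.88, 6.22, 13.2 and 13.5% for Apold1.

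The makeup of the 2 clusters also differed between libraries, and no test of it was run here. Cells of n02-PGC-1 numbered 256, 181, 163, 136, 175 and 126, and those of n03-GC-1 344, 196, 362, 587, 286 and 139. The share of n02-PGC-1 among both was 42.7, 48.0, 31.0, 18.8, 38 and 47.5%, lowest in the occluded libraries. Trained 1, at 38%, was also under both controls. Summed over both clusters, Nppa was 657, 762, 312, 243, 536 and 715 CPM and Apold1 539, 489, 294, 181, 510 and 560.0 CPM. The log2 fold changes under occlusion were -1.38 and -1.14. The sum mixes this difference of makeup with the lower levels within each cluster given above. Since the clusters were made from expression that included both genes, makeup and levels within a cluster cannot be told apart here. Of 8871 genes tested over the sum, 0.225% passed the threshold in this contrast.

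A subset of the summed cells was fixed by the leading genes Grem1, Prss23, Htr1f and Gpr22 of n02-PGC-1, which the study had picked on these same samples. It held the cells with at least 1 UMI of any of them, 446, 277, 376, 431, 332 and 199 cells. Nppa in them was 786, 801, 381, 302, 647 and 837 CPM, and Apold1 575, 524, 305, 220 and, in the trained libraries, 579 and 603 CPM. The subset did not fix the makeup, since 243, 160, 151, 108, 161 and 118 of its cells were of n02-PGC-1, and its values repeat the contrast the genes were chosen by. Cells with such a UMI were 74.3, 73.5, 71.6, 59.6, 72.0 and 75.1% of the summed cells, lowest in naris-occluded 2.

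**Figure D5:**
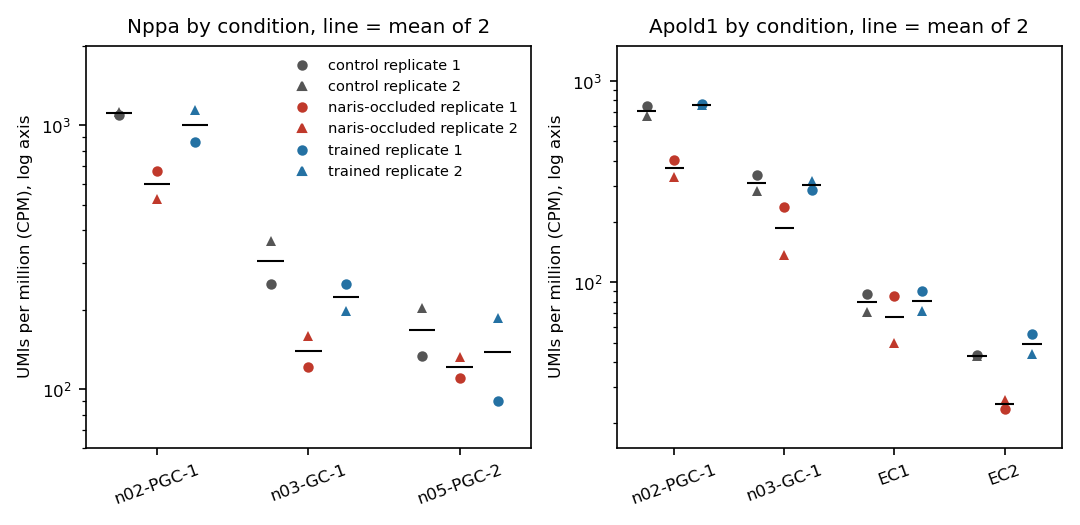
Levels by condition, in CPM on a log axis, of Nppa (left: the interneuron clusters n02-PGC-1, n03-GC-1 and also n05-PGC-2) and of Apold1 (right: the first 2 of these, EC1 and EC2), with 1 point per library and a line at the mean of 2. In n02-PGC-1 and n03-GC-1 the occluded libraries lie under both controls, which is the contrast the genes were chosen by.

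The other leading genes of n02-PGC-1 were read in the same cells. None of the 10 on the list of the study, taken without Nppa and Apold1 and not independent of these samples, passed the edgeR test in n02-PGC-1 under occlusion, 1 had an unadjusted p under 0.05, and DESeq2 also called 0. Of all 5829 genes 0.0858% passed and 306 had an unadjusted p under 0.05, so a count of 0 in 10 is near the background. Their median log2 fold change was -0.03, against 0.00 over all genes tested. Kcnip2, which encodes a potassium channel interacting protein, was at 0.15 ± 0.13 (adjusted p = 0.959), and Cyth1 at 0.04 ± 0.16 (adjusted p = 0.992). For log2 fold changes, ± gives the SE from the edgeR fit. Grem1, a secreted antagonist of bone morphogenetic proteins, was 485, 534, 416, 359, 541 and 546 CPM in n02-PGC-1, with -0.40 ± 0.16 (adjusted p = 0.844). Over both clusters together Grem1 fell, by -1.08 ± 0.16 (adjusted p = 0.00029), where the share of n02-PGC-1 cells also differed. In n03-GC-1, Grem1 was at 28.8 CPM.

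Markers of other cell types were read beside these values. The 12 endothelial markers summed to 134 to 346 CPM in n02-PGC-1, highest in naris-occluded 2, and to 171 to 286 CPM in n03-GC-1, against 17013 to 21281 CPM in endothelial cells. In n02-PGC-1 cells with Apold1 they were at 189 CPM and in those without it at 154 CPM, with median depths of 1998 and 1661 UMIs, and in n03-GC-1 at 220 and 224 CPM. Of 4 markers of heart muscle, Myh6 and Myl7 were at 0 in n02-PGC-1 and the other 2 summed to 8 UMIs. The sensory neuron gene S100a5, whose level in sensory neurons is known to depend on activity, was 766, 498, 231, 155, 532 and 256 CPM in n02-PGC-1 and 960.3, 711, 364, 161, 763 and 386 CPM in endothelial cells, neither of which is a sensory neuron. The other 3 sensory neuron markers did not show this order in n02-PGC-1. Gng13, the most abundant of them, was 491, 338, 368, 425, 508 and 218 CPM in n02-PGC-1, with the occluded libraries between the controls, and Omp and Stoml3 had 37 and 28 UMIs there. By edgeR, S100a5 fell with occlusion in n02-PGC-1 (-1.71 ± 0.24, adjusted p = 0.00026) and in n03-GC-1 (-1.73 ± 0.25, adjusted p = 0.000559) but did not pass in endothelial cells (-1.70 ± 0.30, adjusted p = 0.109), and Gng13 did not pass in any of the 3, while DESeq2 did not call S100a5 in either interneuron cluster. In this contrast DESeq2 called 2 of 5829 genes in n02-PGC-1 and 0 of 6995 in n03-GC-1. Negative log2 fold changes, S100a5 included, were found for 2 of 2 tested sensory markers in n02-PGC-1 and 3 of 3 in n03-GC-1. Endothelial cells had 3 of 4, and the medians were -0.91, -0.54 and -0.40. The part of RNA from outside the cells in the levels of Nppa and Apold1 was not tested. In nonvascular nonneuronal cells, which should lack Nppa, it was at 5.52, 5.11, 2.70, 2.75, 4.86 and 2.13 CPM, from 14 to 50 UMIs per library. Apold1 in them was at 5.41, 4.97, 2.93, 2.03, 4.46 and 3.20 CPM. The occluded libraries were thus under both controls for both genes in these cells too, at far lower levels, and trained 2 was the lowest for Nppa.

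In n05-PGC-2, Nppa had few counts. The controls were at 134 and 203 CPM and the occluded libraries at 109.9 and 132 CPM, so each occluded library was under both controls, but trained 1 was lower still at 90.1 CPM. The cluster had 136 Nppa UMIs in all, and no test was run on it.

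Training was compared with the same control libraries as occlusion. The trained libraries took no part in the choice of the genes, but the control libraries did. That choice favors high control values, so the training differences, intervals and p-values in the interneuron clusters are not free of it. In n02-PGC-1 Nppa was 864 and 1142 CPM after training against 1094 and 1118 CPM in the controls, ranges that overlapped. The log2 fold change was -0.17 ± 0.15 (95% interval -0.47 to 0.13, edgeR adjusted p = 0.978). Apold1 was 764 and 759.9 CPM, just over the 754 and 671 CPM of the controls, with 0.07 ± 0.15 (-0.23 to 0.37, adjusted p = 0.980). No difference passed the test for either gene. The background in this comparison was 0.0686% of 5829 genes (4 genes, and 284 at an unadjusted p under 0.05).

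In n03-GC-1 Nppa was 249 and 198 CPM after training, under both controls by a small margin for trained 1. The log2 fold change was -0.41 ± 0.20 (-0.82 to -0.01) with an unadjusted p of 0.0449 and an adjusted p of 0.937 by edgeR, so it did not pass. Apold1 was 288 and 318 CPM, between the controls, with -0.09 ± 0.19 (-0.48 to 0.29, adjusted p = 0.999). Over all genes 0.0143% of 6995 passed in this comparison. Over both clusters together Nppa was at -0.21 ± 0.14 (-0.50 to 0.07, edgeR adjusted p = 0.988) and Apold1 at 0.03 ± 0.15 (-0.27 to 0.33, adjusted p = 1), with 0.0676% of 8871 genes called. The share of n02-PGC-1 cells was 38 and 47.5% after training, against 42.7 and 48.0% in the controls.

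Endothelial cells showed no change of Apold1 that passed the test under either manipulation. With occlusion Apold1 was 71.5 and 44.3 CPM against 77.0 and 65.5 CPM in the controls, and the ranges overlapped. The log2 fold change was -0.35 ± 0.22 (95% interval -0.81 to 0.12, edgeR adjusted p = 0.968). It was -0.69 without naris-occluded 1 and -0.019 without naris-occluded 2. Within EC1 the occluded libraries were at 85.0 and 49.7 CPM and the controls at 87.2 and 71.2 CPM, while in EC2 they were at 23.3 and 26.0 CPM against 43.4 and 42.7 CPM, from 4 and 6 UMIs against 12 and 9. EC2 thus had both occluded libraries under both controls, on few counts and with no test of its own. Whether occlusion acted differently on endothelial cells and interneurons was not tested. With training Apold1 was 83.2 and 68.3 CPM, at 0.13 ± 0.21 (-0.31 to 0.57, adjusted p = 0.914). The background was 0.0104% of 9643 genes with occlusion (1 gene, and 476 at an unadjusted p under 0.05) and 0.259% with training (25 genes).

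Since Apold1 is known as an immediate early gene, a list of 33 others grouped with this class was read in the same cells. Many, but not all, of this class rise within minutes to hours of a stimulus. In n02-PGC-1, 12 of the 33 had enough counts for the test, and with occlusion edgeR and DESeq2 called 0 of them, 4 having an unadjusted p under 0.05. Over all 5829 genes edgeR called 0.0858%, and 306 had an unadjusted p under 0.05. Their median log2 fold change was 0.33, with 5 of 12 negative, against 0.00 over all genes tested. Their summed level was 742, 797, 927, 890, 896 and 783 CPM, so the occluded libraries were not the lowest. The order of Apold1 was fixed by its choice, so it is not compared with that of the list. Jund was at 151, 168, 286, 226, 176 and 179 CPM, and Fos at 28.5, 25.2, 27.4, 13.3, 58.8 and 45.8 CPM. In n03-GC-1, 12 were tested and edgeR called 0 with occlusion, with a median of 0.11. An unadjusted p under 0.05 was found for 2 of the 12 and for 386 of all 6995 genes, of which edgeR called 0.0715%. With training edgeR called 0 of 12 in each cluster, with medians of -0.02 and -0.01 and 2 of 12 at an unadjusted p under 0.05 in each, against 284 of 5829 and 367 of 6995 genes (0.0686% and 0.0143% called).

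The summed level of these genes was far higher in endothelial cells, at 3529, 3896, 3768, 5147, 5805 and 5037 CPM. With training edgeR called 2 of the 25 tested there, both higher, and DESeq2 called 1, with a median log2 fold change of 0.44 and 4 of 25 negative. An unadjusted p under 0.05 was found for 12 of the 25 and for 813 of all 9643 genes, of which edgeR called 0.259%. With occlusion edgeR and DESeq2 called 0 of the 25, with a median of 0.07 and 8 at an unadjusted p under 0.05, against 476 of 9643 genes (0.0104% called). With training, Klf4, a transcription factor of the endothelium, rose from 234 and 226 CPM in the controls to 552 and 454 CPM (1.16 ± 0.15, edgeR adjusted p = 0.00152). Klf6 rose from 119 and 126 CPM to 228 and 187 CPM (0.80 ± 0.15, adjusted p = 0.0308). Apold1, at 0.13 in this comparison, was under the median of the list. Cells were freed by warm papain digestion before capture, and the part of this handling in the levels of immediate early genes was not tested.

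Of the pathway genes around Nppa, few had counts enough to be tested. In n02-PGC-1 none of the other ligands, processing enzymes, receptors or degrading enzymes passed the filter on low counts. Of 13 genes that make or answer cyclic GMP, 6 were tested, and edgeR called 0 with occlusion and 0 with training, with 0 at an unadjusted p under 0.05 in both and 0 called by DESeq2. Over all 5829 genes edgeR called 0.0858% with occlusion and 0.0686% with training, so a count of 0 in 6 is near the background, and 306 and 284 genes had an unadjusted p under 0.05. Their median log2 fold change was -0.07 with occlusion and -0.02 with training. In n03-GC-1, 7 were tested and 0 called, with 2 at an unadjusted p under 0.05 with occlusion and 1 with training, and the medians were -0.26 and 0.38. Over all 6995 genes of n03-GC-1, edgeR called 0.0715% with occlusion and 0.0143% with training, and 386 and 367 had an unadjusted p under 0.05.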

How the data were processed

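Single cells of 6 olfactory bulb libraries were captured with Chromium Single Cell 3′ v2 chemistry and sequenced on a NextSeq500. The submitters' processing notes name Cell Ranger 2.0.0, Seurat 2.2.1 and mm10. The authors deposited UMI counts per gene and barcode, not normalized, for barcodes with at least 200 genes. The study states that doublets were removed; whether this was done before deposit was not tested, and no doublet caller was run here. They also deposited, as a fraction, the mitochondrial share of each barcode, and 2 cluster annotations, whose library column gave the library (the trained prefixes of the cell names are reversed against it).

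UMI counts were summed per cluster and library and given as CPM. Sums were tested with edgeR 4.0.16 (R 4.3.3; TMM, filterByExpr, quasi-likelihood, all 6 libraries in 1 fit) with Benjamini-Hochberg adjustment over all genes tested and a threshold of 0.05; each log2 fold change comes from this fit. Barcodes without a cluster (1123) were left out. Cells thinned to 500 UMIs had shares computed as exact expectations. Alternatives were DESeq2 1.42.0, RLE scaling, no filter, the replicate number as block, cells of at least 1000 UMIs, only the compared libraries, and each library left out. The test was tried on simulated data: in n02-PGC-1, training against control, 67% of genes changed by 1 on the log2 scale were recovered among 5491 genes, in n03-GC-1 48% among 6697, over both clusters 56% among 8655, and in endothelial cells 69% among 9384 (67% among 9370 for occlusion). False calls in these simulations numbered 9, 6, 3, 10 and 6, and 4, 1, 6, 25 and 1 genes were called in the data. For occlusion, 60, 59 and 63% were recovered among 5541, 6641 and 8585 genes in n02-PGC-1, in n03-GC-1 and over both. False calls there numbered 5, 8 and 5, and 5, 5 and 20 genes were called in the data. The changed genes were many and drawn from those with higher counts, and the same spread was used for all genes. Recovery and false calls thus need not carry over to the data.

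Named genes were Nppa, Apold1, members of fixed lists and the 5 most alike by r. The members and lists were chosen with earlier results of these data known. With 2 libraries per group, p-values measure only the spread between these pooled libraries. Replicate 1 was male and replicate 2 female in every group, so this spread includes any difference of sex. Shares and counts cover counting error only. Genome sequence beyond the RefSeq promoter table was not used here.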

Additional observations from a re-analysis of the deposited data

Results flagged for a closer look

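Barcodes without a cluster were outside every comparison, and both genes were seen in them. They held 108 Nppa UMIs, in 60 of 1123 barcodes (35.8 CPM), and 105 Apold1 UMIs, in 58 barcodes (34.8 CPM). Both values are above the 3.88 and 3.83 CPM of nonvascular nonneuronal cells and under the levels of n03-GC-1. Which cells these barcodes came from was not tested.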

How the results depend on the processing

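Over 96 alternatives of the tested log2 fold changes of Nppa and Apold1, 0 reached an adjusted p of 0.05 (lowest 0.594), and the 72 alternatives of the occlusion differences in n02-PGC-1, n03-GC-1 and both together were all negative, a sign that the choice of the genes fixed. With single libraries left out, Apold1 changed sign in training comparisons whose main values were near 0: in n02-PGC-1 it ranged from -0.018 (without control 2) to 0.16, in n03-GC-1 from -0.19 to 0.037 (without control 1), over both clusters from -0.030 (without control 2; -0.027 without trained 2) to 0.094, and in endothelial cells from -0.068 (without trained 1) to 0.27. The training difference of Nppa stayed negative, a direction that the choice on high control values favors. In n02-PGC-1 it ran from -0.37 (without trained 2) to -0.00047 (without trained 1). In n03-GC-1 it ran from -0.71 (without control 1) to -0.15 (without control 2). Over both clusters it ran from -0.42 (without trained 2) to -0.029 (without trained 1). The occlusion difference of Nppa in n02-PGC-1 ranged from -1.09 (without naris-occluded 1) to -0.75, and that of Apold1 over both clusters from -1.51 (without naris-occluded 1) to -0.85. In n03-GC-1 the occlusion ranges were -1.22 (without naris-occluded 1) to -0.47 (without naris-occluded 2) for Apold1 and -1.40 to -0.85 for Nppa. In endothelial cells Apold1 ranged from -0.69 to -0.019, the last without naris-occluded 2. The cause of these changes is the library left out by construction.

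Shares of cells moved with the depth to which cells were thinned. At 1000 UMIs, 98 of 1037 n02-PGC-1 cells and 468 of 1914 n03-GC-1 cells were too shallow and left out, so depth and the set of cells changed together. As means of 6 libraries, Nppa was seen in 34.2% of n02-PGC-1 cells at 500 UMIs, 50.2% at 1000 and 66.9% unthinned, and in n03-GC-1 in 10.8, 13.8 and 22.0%. Apold1 was seen in 24.2, 40.7 and 56.0% of n02-PGC-1 and in 11.2, 19.5 and 26.0% of n03-GC-1.

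The number of genes called varied between tools. In the order training and occlusion in n02-PGC-1, in n03-GC-1, over both, and in endothelial cells, edgeR called 4, 5, 1, 5, 6, 20, 25 and 1 genes, DESeq2 0, 2, 0, 0, 2, 7, 7 and 0, and edgeR without a filter 11, 6, 3, 11, 0, 9, 104 and 23. With only the libraries compared edgeR called 1, 6, 1, 2, 2, 32, 3 and 2. Leaving out single libraries gave 3 to 17, 3 to 9, 0 to 4, 0 to 15, 0 to 15, 12 to 43, 4 to 107 and 0 to 12. With the replicate number as a block, edgeR called 7, 8, 2, 12, 8, 43, 51 and 5, and the occlusion differences of Nppa and Apold1 in n02-PGC-1 were -0.89 and -0.96. Deviations of same-numbered libraries had correlations of 0.06 to 0.17 over the group pairs, of 2 pairs each, so the numbers, which follow sex, were not taken as a pairing; the block changed no call on Nppa or Apold1. Having 2 libraries per condition, each a pool of mice, and few UMIs in some populations (20 of Nppa in endothelial cells) limits what could be seen.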
